A study of Mus musculus with 24 samples.

Results

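The translation efficiency (TE) of a transcript is its number of ribosome footprints relative to the amount of its mRNA. Here transcripts were ranked by TE in mouse neuroblastoma N2a cells that had been transfected with the empty CRISPR/Cas9 vector pSpCas9(BB)-Puro (ctrl) and treated with Torin1 at 250 nM for 2 h. The ranking used 3 Ribo-seq and 3 RNA-seq libraries. A transcript entered it when its CPM, the count scaled to a common library total, was over 1 in all 6 libraries, and its TE was the log2 of the mean footprint CPM over the mean mRNA CPM. Of the 10811 transcripts listed in both tables of the comparison, 10251 were ranked, of 10926 in all the tables used. The study was about the cap-binding protein eIF4E3, and asked how its loss alters translation in these cells.

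Both assays count reads on the coding sequence (CDS), by P-site for footprints and by any overlap for mRNA. Ctrl Torin1 cells were also set beside ctrl cells given DMSO, the vehicle of the drug, and beside Torin1-treated cells transfected with 3 guides against Eif4e3 (KO). The KO cells were a puromycin-selected pool and not a single clone, and the ctrl cells had gone through the same selection. Each replicate was a different passage of the line, cells received cycloheximide before lysis for the Ribo-seq, and the mRNA libraries were made, per the labels, with a stranded mRNA kit.

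Torin1 blocks the kinase mTOR, after which the 4E-binding proteins are no longer phosphorylated and hold the cap-binding protein eIF4E away from the scaffold eIF4G. The mRNAs best known to depend on this step carry a terminal oligopyrimidine (TOP) motif, a C at the cap followed by a run of pyrimidines, and encode ribosomal proteins and elongation factors. An mRNA can also be poorly translated for reasons in its own sequence, such as AUG triplets upstream of the CDS or a weak context around the start codon.

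The 5′ ends of a few ranked transcripts show what the annotation places at the cap. The first 25 nt are printed in lower case, and the capitals mark the first run of a C followed by at least 4 pyrimidines, searched on the transcript strand. The first 4 belong to the translation machinery and had low TE, Rnf10 had low TE without belonging to it, and the last 4 had high TE.
Pabpc1: CCCCTTCTCCCCggcggttagtgct
Eif3f: CTCTTTCTCggcaagatggcttctc
Rps27: gCTCCTTTCCggcggtgacgacctc
Eef2: gttgacgtcagcggtCTCTTCCgcc
Rnf10: gatgctgtttggcgactcgtcgcca
Hspa5: gcagccagcttggtggcatggacca
Slc16a1: aaagtggcgagctgcgacgtgactg
Tmed5: gaaggatgcgaaacccagaaggcag
Efna5: CCTCCTTCTTCTCTCTCTCCTCTTC
All come from the 5′ TL (5′ UTR) or run into the CDS in GENCODE M21 on GRCm38 (mm10), matched by transcript identifier. Pabpc1 lies at chr15:36595661-36608973 on the minus strand, Eef2 at chr10:81176631-81182498 on the plus strand, Rnf10 at chr5:115241770-115272895 on the minus strand, Slc16a1 at chr3:104638668-104658462 on the plus strand and Efna5 at chr17:62604184-62881317 on the minus strand. Annotated ends need not be the ends used in these cells. The run began at base 1 in 2.26% of the ranked transcripts with a model and lay anywhere in the first 25 nt in 28.8%.

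The 6 ranked libraries held 17048750 to 24317887 mRNA counts and 1289467 to 2015998 footprints. Across transcripts, Pearson's r of log2 CPM was 0.966 to 0.976 between footprint libraries and 0.995 between mRNA libraries. Between a footprint and an mRNA library it was 0.816 to 0.833, and transcripts are not independent replicates. A ranked transcript had a median of 59.3 footprints and 835 mRNA counts per library, so the footprints set the precision. Neuroblastoma markers were found in both assays, with 14 of 18 listed and 14 ranked, among them Prph, the neuronal filament peripherin (1468 to 1488 mRNA CPM). Of 18 markers of fibroblasts, immune, endothelial and epithelial cells only Pdgfra and Pecam1 were listed, at 2.10 to 4.58 mRNA CPM.

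The targeted gene was checked first. In ctrl Torin1 cells Eif4e3 had 14.1, 17.6 and 12.5 mRNA CPM and 22.5, 12.4 and 18.7 footprint CPM, and in KO Torin1 cells 5.11, 4.63 and 4.79 mRNA CPM and 7.03, 3.61 and 2.48 footprint CPM. Both assays were lower in every KO library than in any ctrl library. The log2 TE of Eif4e3 in ctrl Torin1 was 0.28 ± 0.655 (SD of the log2 ratios, n = 3), the 2 assays overlapped, and the transcript was not called (edgeR quasi-likelihood test, adjusted p = 0.273).

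TE spread over a wide range. The SD of log2 TE was 1.11, the median was -0.05, and the 5th and 95th percentiles lay at -1.92 and 1.68, a 12.1-fold difference. The middle 50% of transcripts covered 2.64-fold. For comparison, the median SD of the 3 log2 ratios of a transcript was 0.223, and the median standard error in edgeR was 0.142. Footprints were tested against mRNA in 1 model over all transcripts, in which 0 stands for the bulk of transcripts after TMM normalization. With Benjamini-Hochberg adjustment, 3687 transcripts (36.0%) lay above the bulk, 3773 (36.8%) below it and 2791 (27.2%) were not called. The smallest called difference was 0.16 on the log2 scale. The test used the same 6 libraries as the ranking, so a call is not separate support for a rank.

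**Figure D1:**
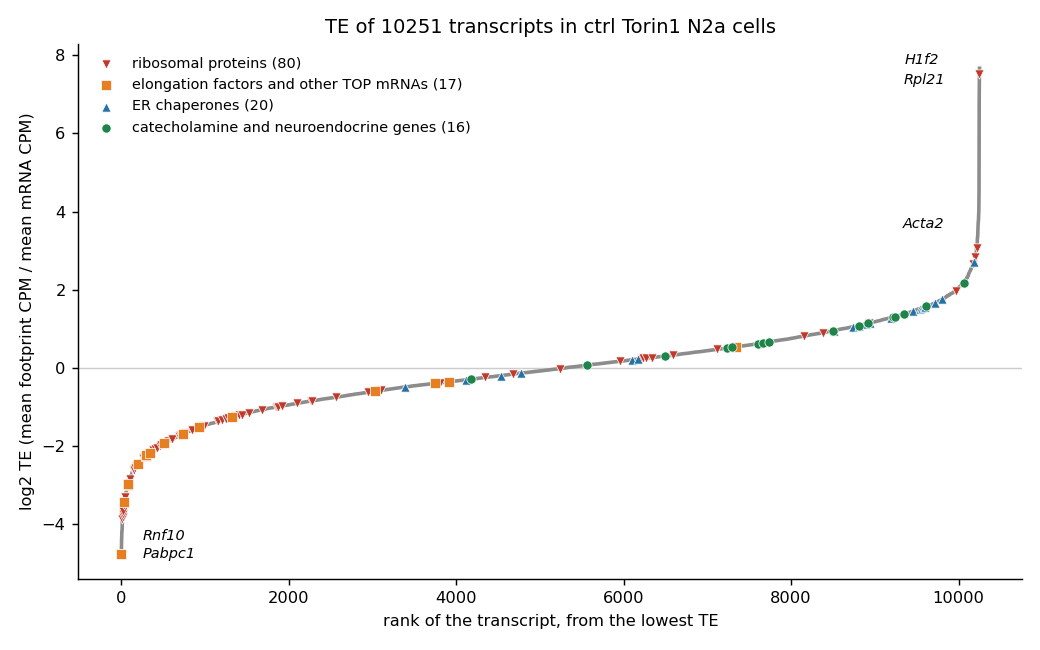
Log2 TE of the 10251 ranked transcripts (vertical axis, log2 of mean footprint CPM over mean mRNA CPM) against their rank from the lowest TE (horizontal axis), as a grey line with the members of 4 gene groups as symbols. TE ran from -4.77 for Pabpc1 to 7.66 for H1f2, and most ribosomal protein and elongation factor transcripts lay below 0.

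The lowest TE belonged to Pabpc1, the poly(A)-binding protein of the cytoplasm. It had 1835, 1767 and 1741 mRNA CPM but only 65.9, 61.5 and 68.2 footprint CPM, a log2 TE of -4.77 ± 0.0888 (SD, n = 3). Eef2, which moves the ribosome along the mRNA after each peptide bond, followed with 343, 283 and 292 footprint CPM on 8769.5, 7733 and 8295 mRNA CPM (-4.76 ± 0.0755). In both, every footprint library was far below every mRNA library. Ribosomes were 27.3-fold and 27.0-fold scarcer on these mRNAs than the mRNA CPM alone would give. The adjusted p-values of edgeR were 2.74e-22 and 1.97e-22. They come from the same libraries that ranked these transcripts lowest, so they add no separate support.

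Low TE was not limited to TOP mRNAs. Rnf10, a RING finger ubiquitin ligase, had 20.9, 16.9 and 19.3 footprint CPM on 421, 447 and 467 mRNA CPM. Its log2 TE was -4.55 ± 0.202 (SD, n = 3), and 1.34% of its 28-nt CDS windows had a copy elsewhere. It was the lowest among 8276 ranked transcripts here called single-copy, those with at most 10% of such windows found in another place of the genome and with no other CDS overlapping on the same strand. Among called single-copy transcripts averaging 10 or more counts in both assays, low ones included Rtn2, a reticulon of the ER membrane (-3.98 ± 0.142), Atp13a2, a lysosomal polyamine transporter (-3.81 ± 0.334), and Ucp2, a carrier of the inner mitochondrial membrane (-3.62 ± 0.0713). Mbd6, Brsk1, Cdk16 and Abca2 were at -3.57 to -3.37. Eif3f lay in the same range but is counted among the TOP mRNAs below. These single-copy extremes were chosen after values were seen. Mbd6 rested on 11 to 21 footprints per library and its SD was 1.01, so its place among its neighbours was not resolved.

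At the other end stood transcripts with very few mRNA reads. H1f2, a linker histone, had 1598, 1541 and 1407 footprint CPM on only 7.85, 7.36 and 7.21 mRNA CPM, a log2 TE of 7.66 ± 0.0511 (SD, n = 3). H2ax, the histone phosphorylated at DNA breaks, had 719.7, 543 and 699 footprint CPM on 3.25, 3.55 and 5.10 mRNA CPM (7.37 ± 0.363). Rpl21, a large-subunit protein, had 784, 695 and 678 on 3.21, 4.18 and 4.40 (7.52 ± 0.357). In all 3 every footprint library was far above every mRNA library, and Hmgb1 (7.32), Hnrnpa3 (6.88) and H2bu2 (6.50) were similar.

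The 5 genes listed under the older histone symbols Hist1h2ao, Hist1h2ap, Hist1h2bp, Hist1h4m and Hist1h4n were left out of the ranking, since their mRNA CPM did not exceed 1. Each had 1 to 9 mRNA counts per library but 828 to 2496 footprints. The mRNAs of replication-dependent histones end in a stem-loop and lack a poly(A) tail. The labels name a stranded mRNA kit for the RNA-seq libraries, and the paper names a TruSeq stranded RNA preparation. A poly(A) selection step is not stated in the sources used here, and its part in the histone values was not tested. The 10 ranked histones that carry current symbols are a list added after the symbols were seen. Of these, 9 were above the bulk and none below, with a median of 2.38. The shares over all ranked transcripts were 36.0% above and 36.8% below. In all, 178 transcripts were left out only by their mRNA CPM, 259 only by their footprint CPM and 123 by both. At the limit, Acot1, an acyl-CoA thioesterase, was the member with the lowest CPM in a library (1.03), and Gipr, a hormone receptor, was the nearest outside (0.997).

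Sequence copies elsewhere in the genome were frequent among the transcripts with the highest TE. Along the whole ranking the relation was weak. Spearman's rho of the share of copied windows with TE was 0.05 over the 10216 transcripts with a transcript model, and -0.10 over the single-copy ones. Of the 50 transcripts with the highest TE, 39 had more than 10% of their 28-nt CDS windows in another place, against 17.4% of all ranked transcripts and 12 of the 50 lowest. Gapdh, an enzyme of glycolysis, is an example, with 801, 671 and 690.3 footprint CPM, 51.8, 53.5 and 55.5 mRNA CPM and all its windows shared. The median log2 TE was 0.93 over the 123 transcripts with all windows shared and -0.11 over the single-copy ones. Among the 50 lowest, 15 overlapped another CDS on the same strand, against 0 of the 50 highest and 224 of the 10216 with a model. Examples among the lowest were Rpl13a (-3.65), with 1955, 1987 and 2016 mRNA CPM, and the overlapping model Gm45713 (-4.18), with 1957, 1989.97 and 2019. The authors kept primary alignments and removed reads on pseudogenes, and the part of these steps in the ranking was not tested.

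When only single-copy transcripts were kept, an alternative chosen after seeing the data, the SD of log2 TE was 1.04, and 2711 of the 8276 were above the bulk and 3214 below. The range then ran from Rnf10 at -4.55 to Acta2, smooth muscle actin, at 3.67 ± 0.222 (SD, n = 3). Acta2 had 115, 138 and 130.5 footprint CPM on 10.8, 9.70 and 9.74 mRNA CPM. Actins share most of their protein sequence, and 5.69% of the Acta2 windows and 9.03% of those of Acta1 (3.33), the skeletal muscle actin, had a copy elsewhere. Windows with mismatches were not counted.

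Tmed5, a cargo receptor between ER and Golgi, had 103, 103 and 105 footprint CPM on 10.9, 11.5 and 9.62 mRNA CPM, a log2 TE of 3.28 ± 0.146 (SD, n = 3). Slc16a1, the lactate carrier MCT1, had 693, 792 and 804 on 98.2, 92.5 and 103 (2.96 ± 0.14). In both, all footprint libraries were above all mRNA libraries. Marcks, a membrane-bound substrate of protein kinase C (3.15), Pgrmc2, a haem-binding ER protein (3.13), Efna5, an ephrin ligand (2.93), and Spcs3, a subunit of signal peptidase (2.89), lay close by. Rnf24 (3.16) and Phactr1 (2.95) completed the 10 highest called single-copy transcripts, on 1.08 to 2.78 mRNA CPM.

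**Figure D2:**
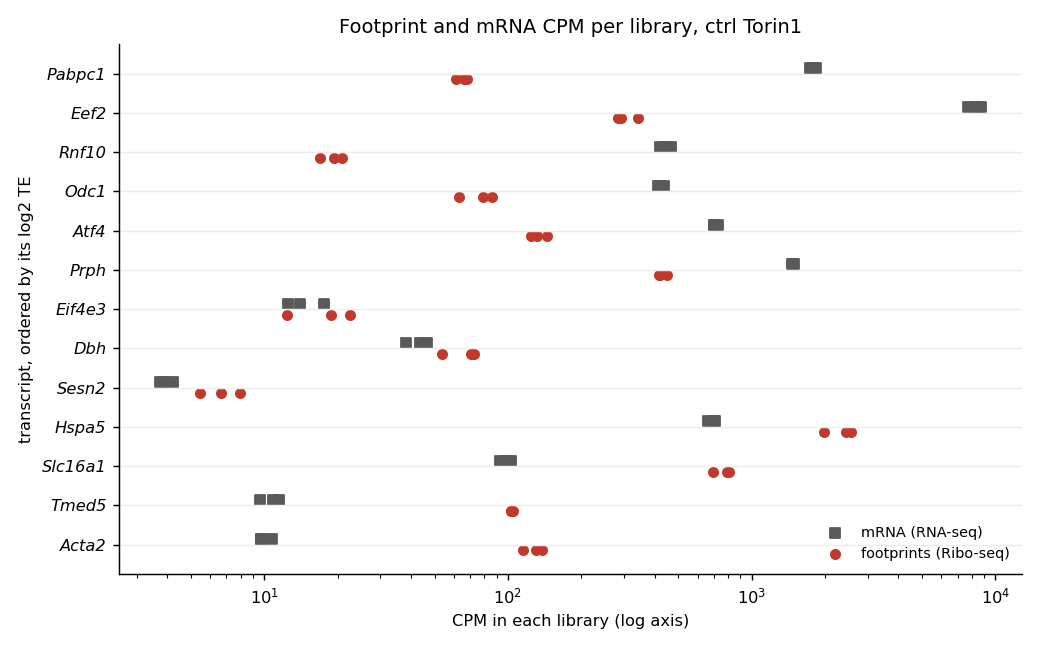
CPM on a log axis in each ctrl Torin1 library for 13 named transcripts, ordered from the lowest to the highest TE, with squares for mRNA and circles for footprints. Circles lie left of squares for Pabpc1, Eef2 and Rnf10, overlap them for Eif4e3, and lie right of them for Hspa5, Slc16a1, Tmed5 and Acta2.

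Ribosomal protein transcripts were mostly at the low end. Of 33 small-subunit proteins ranked, 29 were below the bulk and 2 above, with a median log2 TE of -1.70. Of the 47 large-subunit proteins, 34 were below and 13 above, with a median of -1.30. The corresponding median over all ranked transcripts was -0.05, with 36.0% above the bulk and 36.8% below it. The medians in the 3 single replicate pairs ran from -1.78 to -1.46 for the small subunit and from -1.43 to -1.17 for the large subunit. Nearly all of these genes have copies elsewhere, since only 2 of 33 and 0 of 47 were single-copy.

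The 13 ribosomal proteins above the bulk in the large subunit included Rpl41, which encodes the shortest protein of the ribosome, with 1882, 986 and 1249 footprint CPM on 146, 176 and 166 mRNA CPM (3.08 ± 0.607, SD, n = 3). All its windows were shared. Rps27, a small-subunit protein, stood in contrast at -3.72 ± 0.527. Its windows were all shared as well, so full sharing was found at both ends of the ranking.

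Elongation factors and other TOP mRNAs had a lower median still, -2.16, with 16 of 17 below the bulk and 1 above. Among all ranked transcripts 36.8% were below and 36.0% above. Eef1a1, which brings aminoacyl-tRNA to the ribosome, had 1000.4, 968 and 909 footprint CPM on 8037, 7515 and 7335 mRNA CPM (-2.99 ± 0.0304). Tpt1, a translationally controlled tumour protein, had a log2 TE of -1.93 ± 0.138, and Nap1l1, a histone chaperone, -0.35 ± 0.172. Eif3f, a subunit of the initiation factor eIF3, had 65.1, 49.1 and 39.9 footprint CPM on 515, 562 and 577 mRNA CPM (-3.42 ± 0.44). The exception was Hnrnpa1, an hnRNP protein, at 0.54 ± 0.139. These lists were drawn up with earlier results of these data known, so their low median is not independent evidence. A run of a C and at least 4 pyrimidines lay in the first 25 nt of 15 of 33 small-subunit, 29 of 47 large-subunit and 8 of 17 other TOP transcripts (45.5%, 61.7% and 47.1%, against 28.8% of all), and at base 1 in 3, 6 and 2 of them.

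**Figure D3:**
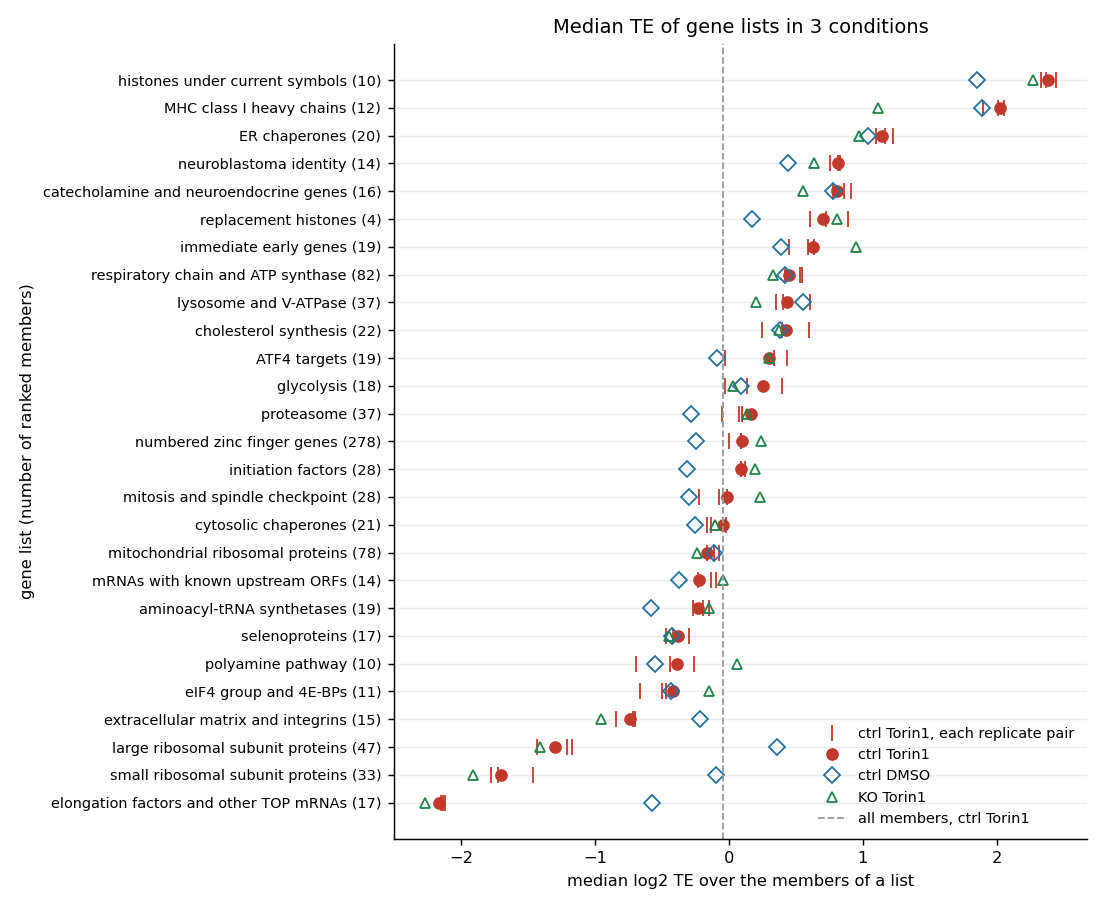
Median log2 TE of 27 gene lists (number of ranked members in brackets) in ctrl Torin1 (filled circles, with ticks for the 3 replicate pairs), ctrl DMSO (diamonds) and KO Torin1 (triangles), with a dashed line at the median of all transcripts in ctrl Torin1. The 3 lists of the translation machinery at the bottom had medians of -2.16 to -1.30 in ctrl Torin1 and -0.57 to 0.36 in ctrl DMSO.

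Among initiation factors, 13 of 28 were above the bulk and 12 below (46.4% and 42.9%, against 36.0% and 36.8% of all ranked transcripts). Their median was 0.09, and -0.72 over the 16 single-copy ones. Other eIF3 subunits, Eif3i (-2.35) and Eif3l (-1.71), were the lowest of them. Eif1a (2.43) and Eif1ax (1.35), which help the scanning ribosome recognise the start codon, were high. In the eIF4 group, 7 of 11 were below and 3 above. Eif4e, the main cap-binding protein, had 369, 362 and 335 footprint CPM on 114, 112 and 98.9 mRNA CPM (1.71 ± 0.0406), with 87.9% of its windows shared. The helicase Eif4a1 stood at 0.62 and its paralog Eif4a2 at -1.003, while Eif4ebp1 (-0.91) and Eif4ebp2 (-1.28), the proteins that hold eIF4E, were below the bulk.

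mRNAs with known upstream open reading frames split evenly, as all ranked transcripts nearly did (36.0% above and 36.8% below). In this list 6 of 14 were above and 6 below, with a median of -0.22, and of 0.04 over the 12 single-copy ones. Atf4, the transcription factor of the integrated stress response, had 144, 131 and 124 footprint CPM on 702, 726 and 699 mRNA CPM (-2.41 ± 0.116, SD, n = 3). Its targets were not low as a group, with 10 of 19 above, 7 below and a median of 0.30. Cebpb, a leucine zipper factor with an upstream frame, was at 2.74 ± 0.607. In the polyamine pathway 3 of 10 were above and 4 below. Odc1, its rate-limiting enzyme, was at -2.48 ± 0.194, Oaz1, the antizyme that inhibits it, at -1.12 ± 0.103, and Azin1, which counters the antizyme, at 0.26 ± 0.224.

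ER chaperones were on the high side. Of 20 ER chaperones and folding enzymes, 15 were above the bulk and 1 below (75% and 5%). Over all ranked transcripts the shares were 36.0% and 36.8%. The ER list had a median of 1.14, with 8 members in the highest 10% of the ranking. Hspa5, the ER Hsp70 BiP, had 1983, 2445 and 2546 footprint CPM on 662, 707 and 703 mRNA CPM (1.75 ± 0.143, SD, n = 3), and every footprint library exceeded every mRNA library. Dnajb9, a partner of BiP, reached 2.70 ± 0.391. P4hb, a protein disulfide isomerase, was the member below the bulk (-0.49 ± 0.0998). Cytosolic chaperones were distributed otherwise, with 6 of 21 above, 10 below and a median of -0.05, from Hsp90ab1 at -1.47 to Ptges3 at 3.13.

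Catecholamine and neuroendocrine genes were also high. Of 16 catecholamine and neuroendocrine genes, 12 were above and none below, with a median of 0.81. This compares with 36.0% above and 36.8% below over all ranked transcripts. Scg2, a granin of dense-core vesicles, had 893, 946 and 948 footprint CPM on 291, 326 and 319 mRNA CPM (1.57 ± 0.0395, SD, n = 3). Dbh, which makes noradrenaline from dopamine, was at 0.62 ± 0.372. Th, the first enzyme of the pathway, had 6 to 10 footprints per library, and its level relative to mRNA was not resolved (-0.29 ± 0.585, adjusted p = 0.408 in edgeR). Among neuroblastoma genes, 10 of 14 were above and 3 below, from Prph at -1.79 ± 0.0498 to the transcription factors Gata3 at 1.98 ± 0.298 and Sox11 at 2.00 ± 0.607.

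MHC class I heavy chains, another list added after values were seen, were all above the bulk, 12 of 12, with a median of 2.03. For this and the next lists, the shares over all ranked transcripts were 36.0% above and 36.8% below. H2-K1 had 488, 466 and 494 footprint CPM on 200.4, 218 and 208 mRNA CPM (1.21 ± 0.101, SD, n = 3), and H2-D1 440.5, 466 and 478 on 183, 179.9 and 186 (1.33 ± 0.0594). Only 2 of the 12 were single-copy. Lysosomal genes and V-ATPase subunits had 26 of 37 above and 6 below (median 0.44), with Atp6v0e at 2.70 and Hexa at -1.63. In the respiratory chain and ATP synthase, 47 of 82 were above and 23 below (median 0.44), and over its 43 single-copy members the median was 0.09. Cox7c and Cox6c, small subunits of cytochrome oxidase, stood at 2.82 and 2.55 with 100% and 68.1% of their windows shared.

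Most of the remaining lists lay nearer the middle. Over all ranked transcripts 36.0% were above the bulk and 36.8% below. Some lists were near these shares, such as mitosis genes (35.7% and 42.9%) and mitochondrial ribosomal proteins (35.9% and 42.3%). Immediate early genes had 12 of 19 above and 1 below (median 0.63), from the nuclear receptor Nr4a1 (-3.17) to the zinc finger factor Klf6 (1.98). Cholesterol synthesis had 12 of 22 above and 5 below (0.43), proteasome subunits 17 of 37 and 10 (0.17), glycolysis 8 of 18 and 7 (0.25), and mitosis genes 10 of 28 and 12 (-0.02). Mitochondrial ribosomal proteins, unlike the cytosolic ones, had 28 of 78 above and 33 below (-0.17). Aminoacyl-tRNA synthetases had 3 of 19 above and 10 below (-0.23), with Qars at -2.93 and Vars at -2.13 as the lowest and Nars at 0.65 as the highest. Numbered zinc finger genes had 88 of 278 above and 70 below (0.10), selenoproteins 6 of 17 and 9 (-0.38), replacement histones 4 of 4 and 0 (0.70), and extracellular matrix and integrin genes 5 of 15 and 8 (-0.74). The extremes of the latter were Hspg2, the basement membrane protein perlecan (-2.71), and Itgb1, the integrin β1 chain (1.52). Of the first 28 lists, 26 had ranked members, and no mitochondrially encoded transcript was listed.

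The ranking went with features of the transcripts. From the lowest to the highest 10% of the ranking, the median CDS length went from 1989 to 792 nt and the median 3′ UTR length went from 651 to 1524 nt. The GC content of the CDS went from 57.7% to 49.4%. Over 10216 transcripts with a model, Spearman's rho with TE was -0.37 for CDS length, -0.38 for CDS GC and 0.20 for 3′ UTR length. Over the 10152 with a 5′ TL of at least 10 nt, it was -0.16 for the GC of the 5′ TL. For 5′ TL length it was -0.04, with medians of 199 nt in the lowest and 170 nt in the highest 10%. The mean mRNA CPM, which is the denominator of TE, had a rho of -0.29 over all 10251 ranked transcripts. Its median was 66.8 in the lowest and 18.5 in the highest 10%. These values describe transcripts that share 6 libraries, and length and GC are related to each other and to the number of counts.

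Length and GC could be separated in part. Among transcripts with CDS GC at or under the median, the median log2 TE was 0.81 in the shortest quartile of CDS lengths and -0.14 in the longest. Above the median GC the values were 0.17 and -1.05. Long GC-rich CDSs were therefore the lowest class and short GC-poor ones the highest, and over single-copy transcripts the same 4 classes had 0.65, -0.20, 0.16 and -1.12. For an mRNA, any read that overlapped the CDS was counted, and for footprints only the P-site. The part of this difference in counting in the length trend was not tested.

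AUG triplets in the 5′ TL were more frequent at the low end. At least 1 was present in 63.8% of the transcripts of the lowest 10% and in 40.04% of the highest, against 50.7% overall. The median log2 TE was 0.08 with no upstream AUG (5033 transcripts), -0.06 with 1 (2321), -0.26 with 2 (1076) and -0.24 with 3 or more (1786). The context of the start codon shifted less. A purine at position -3, counted from the A of the AUG as 1, was found in 83.6% of the lowest and 90.8% of the highest 10%, and a G at position 4 in 54.2% and 53.6%. Examples are shown by the 6 nt before the AUG, the AUG in capitals and the base after it.
Rnf10: cctttgATGc
Pabpc1: gccgagATGa
Eef2: gccaccATGg
Slc16a1: cttaaaATGc
Tmed5: acagggATGg
Eef2, one of the lowest transcripts, had both a purine at -3 and a G at 4, and Slc16a1, one of the highest, had the purine without the G. Of these, Rnf10 alone had a pyrimidine at -3. The first bases shown above make the same point for the pyrimidine run, since Efna5 consists of pyrimidines over its first 25 nt and ranked high. Over all transcripts with the run at base 1 the median log2 TE was -0.30 (231 transcripts), and they made up 3.82% of the lowest and 1.96% of the highest 10%.

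**Figure D4:**
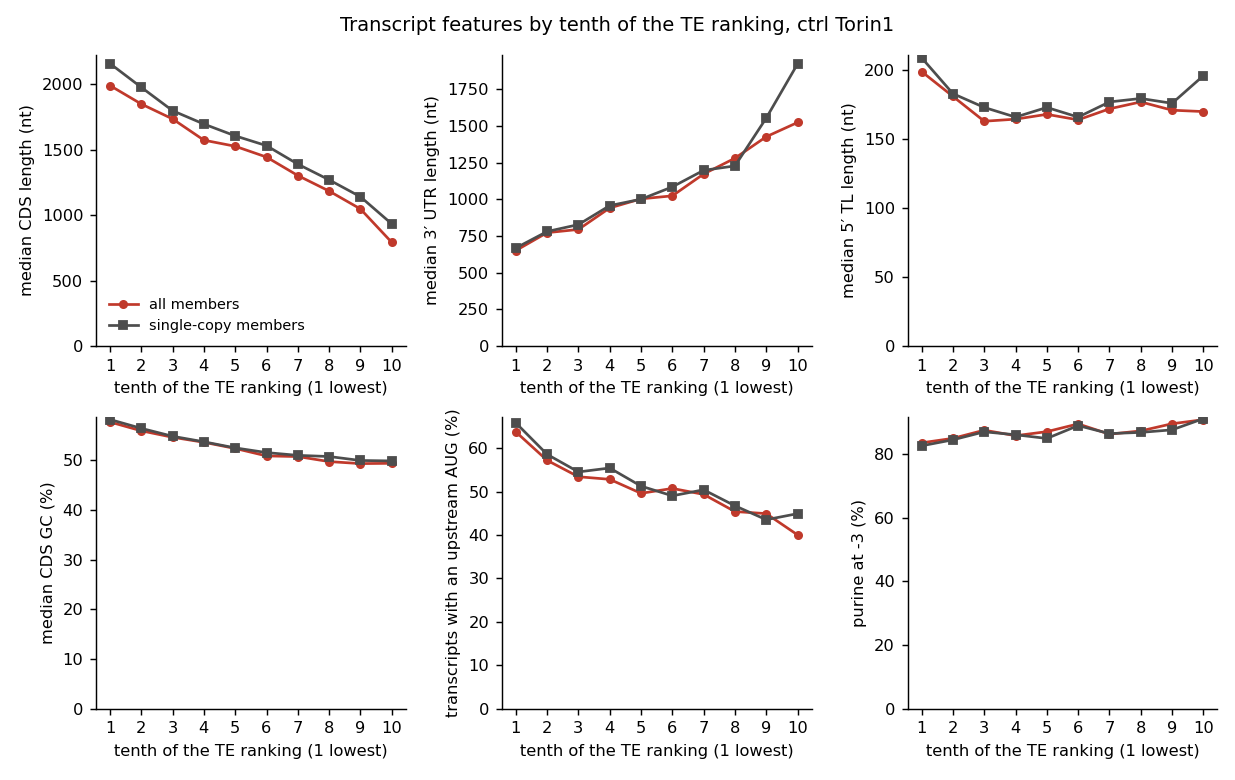
Transcript features (vertical axes: median lengths in nt, median CDS GC in %, share of transcripts in %) in 10 equal bins of the TE ranking from 1 (lowest) to 10 (highest), for all ranked transcripts (circles) and single-copy ones (squares). CDS length, CDS GC and the share with an upstream AUG were lower in bin 10 than in bin 1 in both sets, and 3′ UTR length was higher.

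The ranking resembled that of vehicle-treated cells. Log2 TE in ctrl DMSO, measured with the same mRNA assay and 2 Ribo-seq libraries (4529186 and 669392 footprints), had an r of 0.865 with ctrl Torin1 over 10250 transcripts, and a SD of 1.06. Of the lowest 10% in ctrl Torin1, 61.9% were also in the lowest 10% in ctrl DMSO, and of the highest 10% the share was 70.9%. None of the lowest 10% was in the highest 10% of the other condition, or the reverse. Rnf10, for instance, had 20.3 and 28.4 footprint CPM in ctrl DMSO on 452, 544 and 481 mRNA CPM, and its TE did not pass the test of a difference (-0.24 ± 0.26, SE, adjusted p = 0.705 in edgeR).

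The difference itself was tested as the interaction of assay with treatment. Libraries were scaled within each assay by TMM, so higher or lower TE here means relative to the bulk of transcripts. A change in translation shared by all transcripts would not be seen. In the paper's polysome profiles, heavy polysomes were reduced by Torin1 in ctrl and KO cells. Of 10432 transcripts tested, 40 had higher TE with Torin1 (0.383%) and 448 lower TE (4.29%), and 40 and 444 of them were ranked here. The set with higher TE was the less stable of the 2. Without scaling beyond library size, which moved the median of all transcripts to 0.15, 162 were higher and 327 lower, and with 1 library left out at a time the higher set held 8 to 157 transcripts, 157 of them without ctrl DMSO RNA-seq replicate 2. All 33 small-subunit proteins, 45 of 47 large-subunit proteins and 16 of 17 other TOP mRNAs were in the lower set. In ctrl DMSO the same 3 lists stood at percentiles 53.5, 71.4 and 34.2 of the ranking by their medians, and in ctrl Torin1 at 7.16, 12.3 and 3.31. The other transcripts already low in DMSO included Rnf10, Rtn2 (-3.45) and Cdk16 (-3.33).

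Eef2 had 2826 and 3538 footprint CPM in ctrl DMSO on 7264, 8403 and 7899 mRNA CPM, so the mRNA libraries of both conditions overlapped while the footprints did not. Its TE fell by 3.61 on the log2 scale (SE 0.198), a 12.2-fold decrease, with an adjusted p of 2.87e-10 in edgeR. TE also fell for Eef1a1 (10.7-fold) and Pabpc1 (7.46-fold). Among transcripts with a mean of at least 10 footprints in the higher condition, Slc25a30, a mitochondrial carrier, had the largest fitted decrease (-3.75, SE 0.397) on 4 to 6 footprints per ctrl Torin1 library. Matrix genes fell too, 6 of 15 against 4.29% of all transcripts tested, among them Hspg2 (6.35-fold) and Lama5, a laminin chain (4.13-fold). P4hb fell by 1.44 on the log2 scale (adjusted p = 7.37e-06 in edgeR).

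Where TE was higher with Torin1, the mRNA was sometimes the part that differed. Chac1, a glutathione-degrading enzyme and ATF4 target, had 96.9, 95.1 and 107 mRNA CPM in ctrl DMSO and 6.13, 7.18 and 6.22 in ctrl Torin1. Its footprint CPM were 121 and 151 in ctrl DMSO and 37.2, 38.2 and 18.7 in ctrl Torin1. Both assays were lower with the drug in every library, the mRNA by more, and TE rose by 1.69 (SE 0.283, adjusted p = 0.000484 in edgeR). Sesn2, a sestrin that restrains mTORC1, was also lower in both assays in every library, with 46.9 to 71.7 mRNA CPM in ctrl DMSO and 3.74 to 4.22 in ctrl Torin1 (TE 1.61 higher, SE 0.353, adjusted p = 0.0069 in edgeR). Dync1h1, the dynein heavy chain, had 89.9 and 203 footprint CPM in ctrl DMSO and 434, 608 and 661 in ctrl Torin1, and its mRNA, at 604 to 997 and 1058 to 1174 CPM, was higher too but by less (TE 1.46 higher, SE 0.335, adjusted p = 0.0104 in edgeR). Gata3 (1.40) and Caprin2, an RNA-binding protein (1.23), completed the 5 largest increases at that depth.

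**Figure D5:**
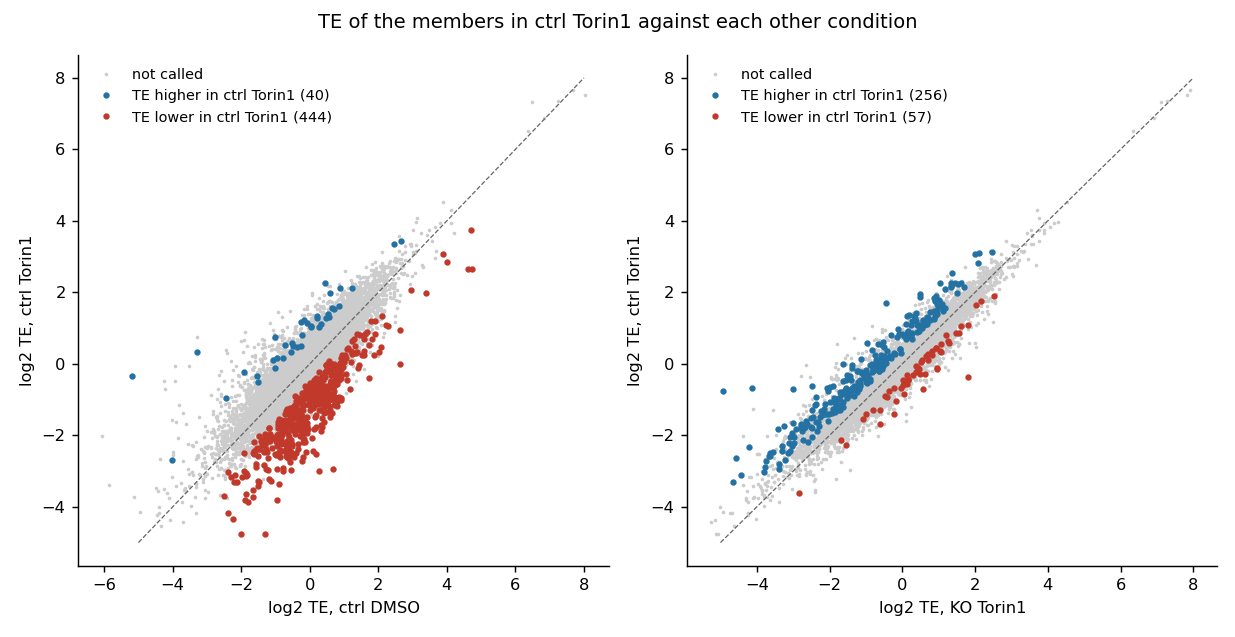
Log2 TE in ctrl Torin1 (vertical axes) against log2 TE in ctrl DMSO (left) and KO Torin1 (right), with 1 point for each ranked transcript, with the transcripts called in the edgeR interaction test in colour and the line of equality dashed. In the left panel 444 transcripts were lower and 40 higher in ctrl Torin1, and in the right panel 57 were lower and 256 higher.

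In KO Torin1 cells the ranking was closer still, with an r of 0.948, a SD of 1.18 and 79.4% and 80.1% of the lowest and highest 10% shared. KO and ctrl were compared with the interaction of assay and genotype, again relative to the bulk of transcripts. Of 10509 transcripts tested, 57 had higher TE in KO (0.542%) and 257 lower TE (2.45%), and 57 and 256 of these were ranked. With 1 library left out at a time, 172 to 314 were called in all, 172 of them without KO Torin1 Ribo-seq replicate 2 and 200 without KO Torin1 RNA-seq replicate 1. The higher ones numbered 28 to 66 and the lower ones 136 to 248. Of the TOP lists, 2 of 33 small-subunit proteins, 3 of 47 large-subunit proteins and 0 of 17 other TOP mRNAs had lower TE in KO. The share over all transcripts tested was 2.45%. The median differences of these 3 lists were -0.13, -0.17 and -0.14 on the log2 scale, against -0.01 over all ranked transcripts.

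The MHC class I heavy chains had the most members with a difference, 9 of 12 lower in KO, against 2.45% of all transcripts tested. H2-K1 had 241, 233 and 254 footprint CPM in KO on 201, 218 and 192 mRNA CPM, so its footprints did not overlap with ctrl while its mRNA did (TE 1.92-fold lower, adjusted p = 1.26e-06 in edgeR). H2-D1 was 2.00-fold lower. By its median, this list stood at percentile 97.4 of the ranking in ctrl Torin1 and at 86.9 in KO Torin1. Of the 12, 10 had over 10% of their windows in another place, so these are not 9 separate measurements.

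Other members called lower in KO were 7 of 82 respiratory chain genes, such as Cox7c (1.65-fold), and 5 of 15 matrix genes, such as Lama5 (3.97-fold) and Hspg2 (2.07-fold). So were 4 of 20 ER chaperones and 2 of 16 catecholamine genes. Of all transcripts tested, 2.45% were lower in KO. Dbh had 53.5, 72.4 and 70.7 footprint CPM in ctrl and 15.9, 30.5 and 21.04 in KO, on 46.6, 38.1 and 43.4 and 29.3, 32.5 and 36.3 mRNA CPM. Both assays were lower in KO in every library, and its TE fell by 1.17 (SE 0.226, adjusted p = 0.004 in edgeR). Slc7a5, the large neutral amino acid transporter, had 468, 479.7 and 537 footprint CPM in ctrl and 231, 227 and 264 in KO, with mRNA CPM that overlapped (2.04-fold lower TE, adjusted p = 9.54e-07 in edgeR).

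The largest decreases in KO, among transcripts with a mean of at least 10 footprints in the higher condition, rested on few footprints. Slc8a2, a sodium-calcium exchanger, had 7, 16 and 7 footprints in the ctrl libraries and 0.516 to 1.86 CPM in KO (TE -2.38, SE 0.591, adjusted p = 0.0232 in edgeR). Zxdb, a zinc finger gene with 99.0% of its windows shared (-2.06), Man2a2, a Golgi mannosidase (-1.84), and Atp2a3, a calcium pump (-1.76), followed, beside Lama5. The largest increases were in Tuba4a, a tubulin (2.26, from 2 to 7 footprints per ctrl library), Ap3m2, an adaptor subunit (1.29), Fgd6, an exchange factor (1.16), Tank, a regulator of NF-κB signalling (1.12), and Zcchc7, a zinc knuckle protein (1.08). Comparisons with ctrl DMSO and with KO Torin1 used the same ctrl Torin1 libraries, so a member called in both is not supported by separate measurements.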

How the data were processed

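N2a cells were profiled by Ribo-seq and RNA-seq, 3 libraries per group, each a different passage per the labels. P-values therefore measure the spread between these passages. The deposited values are raw counts per CDS of a canonical transcript. The authors trimmed reads with cutadapt, mapped them to mm10 with HISAT2, kept primary alignments, removed reads on rRNA, tRNA and pseudogenes, remapped to Ensembl transcripts with bowtie2, and counted P-sites predicted by riboWaltz (footprints) or reads overlapping the CDS (mRNA). Their tables also hold edgeR fold changes and p-values, and separate tables hold their TE comparisons. These columns and tables were not used. Ctrl DMSO Ribo-seq replicate 2, which the paper reports as an outlier and left out, has no column in the counts used. It was not analysed here.

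CPM was scaled by the column total of each table. Footprints were tested against mRNA, and the interaction of assay with treatment or genotype, with edgeR 4.0.16 (quasi-likelihood, TMM, Benjamini-Hochberg threshold 0.05, R 4.3.3), on transcripts with CPM over 1 in every library of at least 1 condition in each assay for the interactions. The calculation was tested on simulated data. DESeq2 1.42.0 and limma 3.58.1 (voom), DESeq2 size factors, no scaling, other count filters, a replicate block and leaving out each library were alternatives. Sequence features came from GENCODE M21 (GRCm38) by transcript identifier in Python 3.11.15 with pandas 2.3.3, numpy 2.4.6 and scipy 1.17.1, and 10216 ranked transcripts were matched.

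No replicate block was used in the tests, since the deviations of same-numbered libraries did not correlate above 0.1 in every pair. SDs of log2 TE and medians per replicate come from the 3 ratios of same-numbered footprint and mRNA libraries, as a description. Named transcripts were the 10 highest and 10 lowest called ones that averaged 10 or more counts in both assays without overlap of the assays, the 2 highest and 2 lowest of each list, 21 further genes such as Eif4e3 and Atf4, the 5 largest called changes in each direction of each interaction with a mean of at least 10 footprints in the higher condition, and those nearest the CPM threshold. Single-copy extremes, 2 lists and some further examples were added later. The members and lists were chosen with earlier results of these data known. Some values are not reported here.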

Additional observations from a re-analysis of the deposited data

Results flagged for a closer look

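The TE of 484 ranked transcripts differed between ctrl Torin1 and ctrl DMSO in the interaction test of edgeR. Of these, 129 were called in ctrl Torin1 and had a log2 TE of the other sign in ctrl DMSO. Most were positive in ctrl DMSO and negative in ctrl Torin1, such as Eef1a1 (0.26 and -2.99) and Rpl27a (0.19 and -2.52). Fewer turned the other way, among them Sesn2, with -1.02 in ctrl DMSO and 0.76 in ctrl Torin1. Sesn2 rested on a mean of 11.3 footprints per ctrl Torin1 library.

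Between ctrl Torin1 and KO Torin1 the TE of 313 ranked transcripts differed, and 33 of these were called in ctrl Torin1 and had the other sign in KO Torin1. Tapbp, which holds MHC class I molecules at the peptide transporter, went from 0.59 in ctrl Torin1 to -0.97 in KO Torin1 (difference -1.56, SE 0.188, adjusted p = 1.02e-05 in edgeR). Tap1, a subunit of that transporter, went from 0.54 to -0.67 (-1.23, SE 0.281, adjusted p = 0.0138 in edgeR). Ganab, a glucosidase that trims glycans in the ER, went from 0.74 to -0.15 (-0.88, SE 0.113, adjusted p = 2.69e-05 in edgeR).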

How the results depend on the processing

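Footprints against mRNA gave 7460 calls, and 6836 to 7300 with 1 library left out. The SD of log2 TE, 1.11, was 1.04 (1.03501) over single-copy transcripts, an alternative chosen after seeing the data, and 1.10 (1.10483) to 1.13 (1.12615) with 1 library left out. TE of ctrl Torin1 against ctrl DMSO gave 488 calls, and 316 (without ctrl DMSO Ribo-seq replicate 1) to 821 (without ctrl DMSO RNA-seq replicate 2) with 1 library left out, and DESeq2 called 86 higher and 547 lower. The higher calls, 40, were 8, 9 and 15 without ctrl Torin1 RNA-seq replicates 3, 1 and 2, 14 and 20 without ctrl Torin1 Ribo-seq replicates 2 and 3, and 17 and 104 without ctrl DMSO RNA-seq replicates 1 and 3. TE of KO Torin1 against ctrl Torin1 gave 314 calls, 598 with DESeq2 (172 higher, 426 lower), and 172 to 314 with 1 library left out. The replicate block gave 7374, 555 and 425 calls in the 3 tests, and in the last one 96 higher against 57 without the block. The labels do not say that a number marks a shared passage, so this was not taken as a pairing. Deviations of same-numbered footprint and mRNA libraries of ctrl Torin1 correlated at 0.00558 to 0.0215. Within an assay, those of same-numbered libraries correlated at 0.0450 to 0.245 in the comparison with DMSO and -0.0393 to 0.284 in that with KO, and those of other numbers at up to 0.0669 and 0.0913. No named transcript that was called turned its direction. Relative to all transcripts, the median of initiation factors (0.14) was -0.61 over single-copy members, that of mRNAs with upstream ORFs (-0.17) was 0.15, cytosolic chaperones (0.00016) had -0.11 and mitosis genes (0.03) -0.08. With 1 library left out the last 2 ran from -0.07 to 0.06 and from -0.04 to 0.04. For named transcripts, 13, 75 and 49 repeats in the 3 tests no longer passed the threshold and 21, 27 and 25 newly passed it. Fewer than 10 footprints per library on average were available for all but 9323 ranked transcripts, which limits the precision of TE at the low end. A lone library left in an arm was assumed to vary like the others. The cause of these differences was not tested.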
